A study of Homo sapiens with 30 samples.

Results

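The 46 genes described here run the mechanical part of cell division: they encode the kinases that start mitosis, the centromere and kinetochore, the spindle and its motors, the spindle assembly checkpoint, chromosome condensation and the contractile ring. They were chosen by symbol, and each symbol matched 1 of the 61471 rows of the U87 table and 1 of the 61471 rows of the U251 table. All 46 passed the filter on low values in both lines (a mean of at least 0.5 TPM), so no member was left out. TPM, the unit of the tables, is a transcript level scaled for transcript length and for the total of the library. The tables carry that name, but another source of the study calls the values CPM, a unit without the length scaling. Of the values above 0 and under 1 in a library, 81.2% to 85.2% were distinct, whereas whole reads scaled by the library total alone would repeat a few steps. Levels of different genes are set side by side here on the reading that the values are TPM.

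RNA was sequenced from 2 established human glioblastoma cell lines, U87 and U251, which were grown with interferon gamma (IFN-γ), the cytokine that T cells and NK cells release. In each line the groups were Untreated (no IFN-γ), D3, D14 and D28 (3, 14 and 28 days of continuous IFN-γ) and D28WO (14 days with IFN-γ, then 14 days after its removal). The labels give a dose of 1 µg/mL and day 3 for Untreated, whereas the methods of the study give a lower dose and the start of the time course. The groups are the same under both accounts. Under either, no Untreated culture was collected on day 14 or 28. Days in culture and IFN-γ exposure therefore cannot be told apart in the comparisons of D14, D28 and D28WO with Untreated. The methods describe replicates as cultures started and treated separately, and state that both lines are on a register of lines often misidentified and had no STR authentication here. Of 30 libraries 28 were used, because a pair of U87 columns has 1 name between them. U87 had 3 libraries each for Untreated, D28 and D28WO and 2 each for D3 and D14 (replicates 2 and 3), and U251 had 3 in every group.

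Mitosis begins when cyclin B and CDK1, activated by CDC25 phosphatases, phosphorylate their substrates, and PLK1 and the Aurora kinases drive the steps that follow. Kinetochores assembled on CENPA chromatin capture microtubules through the NDC80 complex, and unattached kinetochores keep the checkpoint proteins MAD2, BUBR1 and BUB3 bound to CDC20. Once every chromosome is attached, CDC20 activates the anaphase-promoting complex (APC/C), securin and cyclin B are degraded, and the cell divides. The transcripts of most of these genes peak in G2 and mitosis, so a bulk level depends on the share of cells in those phases and on the RNA per cell, and a lower value cannot tell fewer dividing cells from less RNA in each.

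Before the results, the libraries were checked against their labels. IRF1, GBP1 and PSMB9, which IFN-γ induces, summed to 236 to 251.5 TPM in Untreated U87 and to 820.04 to 858 TPM at D3, but to 214 to 237 TPM in the libraries labelled D14, where 0 of 3 genes passed the test against Untreated (limma, with 0 at an unadjusted p under 0.05). In the U87 libraries labelled D28WO, for which the labels give 14 days without IFN-γ, the sum was 859.6 to 952 TPM, against 876 to 959.8 TPM at D28. U251 showed the same order in part, with 254 to 262 TPM in Untreated, 1169.8 to 1472 at D3, 589 to 634 at D14, 1252 to 1405 at D28 and 1349.5 to 1432 at D28WO. In U251 all 3 genes were called higher at D14 than in Untreated, lower at D14 than at D3 and higher at D28 than at D14. The levels of these 3 genes thus did not follow the labelled exposure at D14 in U87 and at D28WO in both lines. At D14 in U251 they stood above Untreated, but below D3 and D28. D28WO in U87 and D14 in U251 are the groups with the most members called against Untreated. Whether labels of D14 and D28WO were exchanged cannot be told from the tables, and the protein measurements of the study were not analysed here. The labels were kept as given, and the part this has in any value given for those groups was not tested. D3 and D28 were also fitted without the D14 and D28WO libraries.

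**Figure D1:**
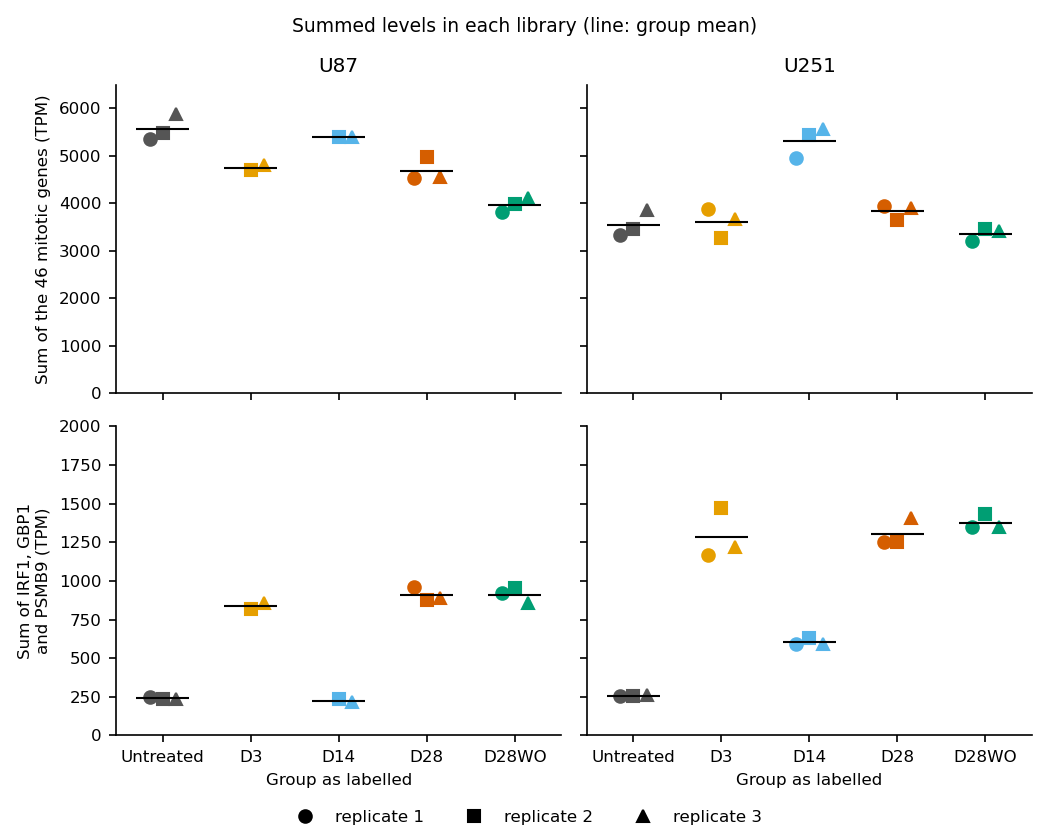
Summed TPM of the 46 mitotic genes (upper row) and of IRF1, GBP1 and PSMB9 (lower row) in each library of U87 (left) and U251 (right); the horizontal line is the group mean and the marker shape gives the replicate. The mitotic sum of U87 was lowest in the libraries labelled D28WO and that of U251 highest in those labelled D14, while the lower row sits near the Untreated level at D14 in U87.

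Glioma markers were present: VIM was at 984 TPM or more in every U87 library and CD44 at 471 TPM or more, and GFAP was at 222 TPM or more in every U251 library but at 19.1 TPM or less in U87. SOX2 stayed under 1 TPM in U87. The 10 markers of other cell types summed to 12.1 to 25.7 TPM in U87, where 7 were tested and 2 were called at D28WO, the epithelial EPCAM lower (3.14 to 9.29 TPM in Untreated, 1.03 to 1.38 at D28WO) and the hepatocyte product ALB higher (0 to 0.351 and 2.88 to 6.65 TPM). CD3E stayed under 1 TPM in every library of both lines. In U251 that sum was 24.7 to 30.8 TPM in Untreated, 55.9 to 69.1 at D3, 27.2 to 38.2 at D14, 43.5 to 45.98 at D28 and 51.5 to 55.2 at D28WO, most of it from MBP, and all 6 glioma markers were called lower at D3 and at D28 against Untreated, and 5 of 6 at D14 and at D28WO. In U87, 3 of the 5 glioma markers tested were called lower and 1 higher at D28WO. At D3 1 of these 5 was called lower, and at D28 2 were called higher. Of the 7 tested markers of other cell types, 1 was called higher at D3 and 1 at D28. The part of these shifts in the mitotic values was not tested. Genes above 0 moved with the groups. They numbered 24223 to 25459 per library in Untreated U87, 26096 to 28453 at D3, D14 and D28 and 27719 to 28649 at D28WO. In U251 they numbered 24450 to 27187 in Untreated, 26475 to 28365 at D3, 27763 to 29771 at D14, 28955 to 30246 at D28 and 25633 to 26378 at D28WO, and their part in the mitotic values was not tested either. Untreated replicate 3 of U87 stood apart, with a median-ratio size factor of 0.846 against 0.961 to 1.05 in the other U87 libraries and the highest mitotic sum of the line (5885 TPM).

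Among annotated features the members share, 2 short motifs are known for cell cycle promoters: TTTGAA, the core of the cell cycle homology region bound by the MuvB complex, and CCAAT, bound by NF-Y. In the RefSeq windows of GRCh38.p14 (250 bases before to 50 bases after the start), 39 of the 46 genes had an entry, with 50 windows in all. TTTGAA on either strand was in 33 of the 50 windows (66%), against 15.2% of all 35116 windows. CCAAT on either strand was in 36 (72%), against 34.6%, and both were in 26 (52%), against 5.9%. Such a match is a description of the sequence and not a shown site.

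The 120 bases before the start are given for 6 members whose levels the results turn on, 5′ to 3′ on the strand of the gene, with TTTGAA or its reverse complement TTCAAA in capitals, and likewise CCAAT or its reverse complement ATTGG. CDC20 had the largest fall of U87, KIF20A and INCENP fell in both lines at D28WO, ASPM was the only member called higher than Untreated in U87, KIF18A had the largest rise over Untreated in U251, and PLK1 is the kinase at the centre of the group.
CDC20, chr1:43358861-43358980, plus strand: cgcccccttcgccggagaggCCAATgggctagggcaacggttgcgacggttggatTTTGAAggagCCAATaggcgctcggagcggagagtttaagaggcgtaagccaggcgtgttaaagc
PLK1, chr16:23678769-23678888, plus strand: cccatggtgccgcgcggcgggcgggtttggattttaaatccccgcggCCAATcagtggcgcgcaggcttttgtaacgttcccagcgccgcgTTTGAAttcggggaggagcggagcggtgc
KIF20A, chr5:138178992-138179111, plus strand: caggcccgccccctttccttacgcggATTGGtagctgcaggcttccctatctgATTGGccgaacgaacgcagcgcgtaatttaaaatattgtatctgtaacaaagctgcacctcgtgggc
ASPM, chr1:197146670-197146789, minus strand: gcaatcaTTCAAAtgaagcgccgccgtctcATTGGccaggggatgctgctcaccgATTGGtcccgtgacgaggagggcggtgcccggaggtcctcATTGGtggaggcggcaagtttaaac
INCENP, chr11:62123891-62124010, plus strand: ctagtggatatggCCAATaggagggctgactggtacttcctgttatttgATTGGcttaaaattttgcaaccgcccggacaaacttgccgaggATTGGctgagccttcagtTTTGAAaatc
KIF18A, chr11:28108157-28108276, minus strand: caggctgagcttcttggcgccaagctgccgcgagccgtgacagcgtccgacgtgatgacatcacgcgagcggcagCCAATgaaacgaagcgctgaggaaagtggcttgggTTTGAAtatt
KIF20A held 2 CCAAT matches and no TTTGAA in these bases, and ASPM held 3 CCAAT matches and 1 TTTGAA.

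In U87 the summed level of the 46 genes was lower than in Untreated at D3 and D28, inside the Untreated range at D14 and lowest at D28WO. It was 5349, 5483 and 5885 TPM in the Untreated libraries, 4701 and 4804 at D3, 5391 and 5387 at D14, 4524, 4981 and 4546 at D28, and 3813, 3994 and 4111 at D28WO. The libraries of D3, D28 and D28WO lay below every Untreated library, and those of D14 lay inside the Untreated range. By group mean, 27 members were highest in Untreated, 15 at D14, 3 at D3 and 1 at D28WO, and 38 were lowest at D28WO. Each line was tested in 1 limma fit of its 5 groups on log2(TPM + 1), and a gene was called at a Benjamini-Hochberg adjusted p under 0.05 over all genes tested (22918 in U87, 23667 in U251). All fold changes below are log2 differences on this scale, and the comparisons with Untreated share the Untreated libraries.

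**Figure D2:**
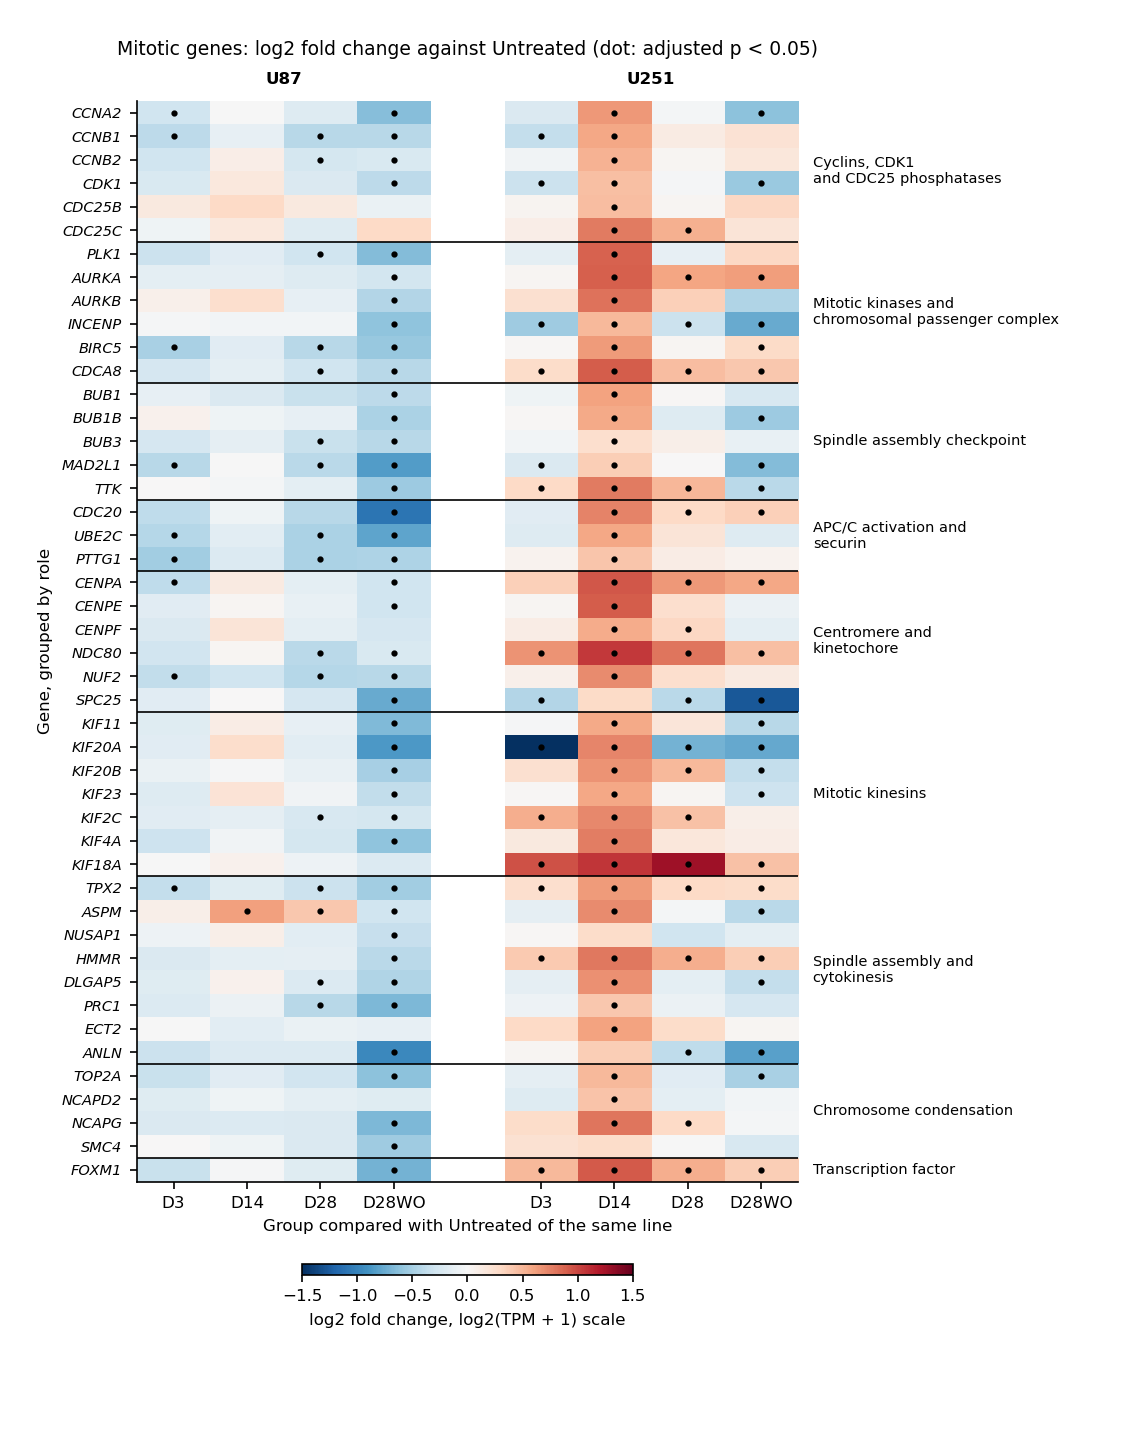
Log2 fold change against Untreated (colour, log2(TPM + 1) scale) of the 46 genes in rows, grouped by role, at D3, D14, D28 and D28WO in U87 and U251; a dot marks an adjusted p under 0.05. The U87 side is mostly blue, deepest at D28WO with 40 of 46 genes called lower, and the U251 side is red at D14 with 42 of 46 called higher.

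At D28WO in U87, 40 of 46 members fell and 0 rose (also 0 at an unadjusted p under 0.05, limma), where 13.4% of all genes tested were called lower and 28.6% higher. The median of the members was -0.45 (log2) and that of all genes 0.25. Every D28WO library lay below every Untreated library for 42 members, against 16.6% of all genes tested. The falls were moderate: 1 member, CDC20, was called lower by more than 2-fold, against 2.12% of all genes. The 6 members without a call were CDC25B, CDC25C, CENPF, KIF18A, ECT2 and NCAPD2. Leaving out any 1 library left 33 to 41 members called.

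The genes that act at the onset of anaphase had the largest fall of the roles at D28WO in U87. Their median was -0.79, and 3 of 3 members (CDC20, UBE2C and PTTG1) were called. CDC20 (chromosome 1, 43358981 to 43363203 of GRCh38, the span of all its transcripts in GENCODE 44, as for the positions below), the activator of the APC/C, was at 164, 176 and 163 TPM in the Untreated libraries and at 73.9, 70.3 and 91.2 TPM at D28WO, a log2 fold change of -1.09 ± 0.15 (SE, adjusted p = 1.6e-04). The highest D28WO library was well below the lowest Untreated library. UBE2C, the ubiquitin-conjugating enzyme that works with the APC/C, went from 236, 225 and 278 to 139.98, 152 and 134 TPM (log2 fold change -0.79 ± 0.093, adjusted p = 5.1e-05). PTTG1, the securin that holds separase inactive, had a log2 fold change of -0.46 ± 0.074 (SE, adjusted p = 4.7e-04).

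The spindle assembly checkpoint was called lower in 5 of 5 members at D28WO in U87. MAD2L1 (chromosome 4, 120055623 to 120066858), the MAD2 protein that captures CDC20, was at 102, 108 and 107 TPM in Untreated and 57.4, 59.8 and 58.8 TPM at D28WO (log2 fold change -0.84 ± 0.081, adjusted p = 1.2e-05), with no overlap. The kinase TTK (MPS1) changed by -0.54, BUB1B (BUBR1) by -0.47, BUB3 by -0.41 and the kinase BUB1 by -0.39. BUB1 was at 151, 134 and 169 TPM in Untreated and 97.1, 120.03 and 131 TPM at D28WO, and its call was lost without Untreated replicate 3, without D28WO replicate 1 and with quantile normalization. BUB3 was at 144, 153 and 185 TPM in Untreated and 116, 119.9 and 123 TPM at D28WO, groups that did not overlap.

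Of the cyclins and their regulators, 4 of 6 fell at D28WO in U87. Cyclin A2 (CCNA2) changed by -0.64, cyclin B1 (CCNB1) by -0.41, its kinase CDK1 by -0.39 and cyclin B2 (CCNB2) by -0.23. CCNB1 (chromosome 5, 69167135 to 69178245), the most abundant member in Untreated U87, was at 290.2, 300.3 and 347 TPM there and 229, 239 and 235 TPM at D28WO, and its call was lost with quantile normalization. CDK1 was at 124, 123 and 144 TPM in Untreated and 98.2, 102 and 96.7 TPM at D28WO, again without overlap. The 2 phosphatases that activate CDK1 did not pass the test, with log2 fold changes of -0.10 for CDC25B (adjusted p = 0.726) and 0.30 for CDC25C (adjusted p = 0.159, with limma).

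The kinases and the chromosomal passenger complex, which corrects faulty attachments, fell in 6 of 6 members. PLK1 (chromosome 16, 23677656 to 23690367) was at 139, 136 and 145 TPM in Untreated and 82.05, 86.8 and 99.9 TPM at D28WO (log2 fold change -0.64 ± 0.095, adjusted p = 2.4e-04). AURKB, the kinase of the complex, was at 128, 120.3 and 112 TPM in Untreated and 83.6, 83.98 and 97.2 TPM at D28WO (log2 fold change -0.44 ± 0.093, adjusted p = 0.00257), and INCENP, its scaffold, changed by -0.61. BIRC5 (survivin) changed by -0.57, CDCA8 (borealin) by -0.42 and the spindle pole kinase AURKA by -0.28.

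At the centromere and kinetochore 5 of 6 members fell, with the largest fall in SPC25 of the NDC80 complex (81.6, 99.4 and 107 against 52.1, 54.5 and 62.4 TPM, log2 fold change -0.76 ± 0.11, adjusted p = 2.1e-04). The other 2 subunits of that complex in the list, NUF2 and NDC80, changed by -0.42 and -0.23. CENPA, the histone H3 variant of centromeres, changed by -0.30 and the motor CENPE by -0.30. The calls of NDC80 and CENPA were each lost without any 1 of several libraries, Untreated replicates 1 and 2 and D28WO replicates 1 and 3 among them. CENPF was at 119, 108 and 113 TPM in Untreated and 89.3, 108 and 88.4 TPM at D28WO and did not pass the test (log2 fold change -0.25 ± 0.12, adjusted p = 0.111 with limma).

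Of the mitotic kinesins 6 of 7 fell. KIF20A (MKLP2, chromosome 5, 138178719 to 138187723), which carries the passenger complex to the midzone, was at 87.7, 105 and 101 TPM in Untreated and 52.2, 47.7 and 61.02 TPM at D28WO (log2 fold change -0.86 ± 0.12, adjusted p = 1.5e-04). KIF11 (Eg5), which pushes the poles apart, changed by -0.67, the chromokinesin KIF4A by -0.60, KIF20B by -0.50, KIF23 by -0.37 and the depolymerase KIF2C by -0.26. KIF18A, which damps chromosome movements, was at 50.7 ± 2.67 TPM (SD, n = 3) and 43.9 ± 0.616 TPM (n = 3) and did not pass the test.

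Spindle assembly and cytokinesis genes fell in 7 of 8 cases. ANLN (anillin, chromosome 7, 36389821 to 36453791), a scaffold of the contractile ring, was at 149, 193 and 171 TPM in Untreated and 72.7, 81.7 and 110.4 TPM at D28WO (log2 fold change -0.96 ± 0.20, adjusted p = 0.00275). PRC1, which bundles midzone microtubules, changed by -0.67, the AURKA activator TPX2 by -0.52, DLGAP5 by -0.45, HMMR by -0.40, NUSAP1 by -0.34 and ASPM by -0.30. ECT2, the exchange factor that activates RhoA at the equator, was at 112 ± 5.99 and 103 ± 4.04 TPM (SD, n = 3 each) and did not pass.

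Chromosome condensation fell in 3 of 4 members, and the transcription factor FOXM1 fell with them. TOP2A, which untangles sister chromatids, was at 126, 128 and 168 TPM in Untreated and 82.2, 86.2 and 106 TPM at D28WO (log2 fold change -0.61 ± 0.13, adjusted p = 0.00215). The condensin subunits NCAPG and SMC4 changed by -0.68 and -0.53, and NCAPD2 (-0.18) did not pass. FOXM1, which activates many G2 and mitosis genes, was at 115, 122 and 118 TPM in Untreated and 64.8, 68.2 and 84.03 TPM at D28WO (log2 fold change -0.71 ± 0.11, adjusted p = 2.7e-04).

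At D3 in U87, 9 of 46 members fell and 0 rose (21 and 0 at an unadjusted p under 0.05, limma), where 4.28% of all genes were called lower and 12.4% higher. The median of the members was -0.21 and that of all genes 0.20. PTTG1 had the largest fall, from 213, 229 and 252 TPM in the Untreated libraries to 168 and 153 TPM at D3 (log2 fold change -0.52 ± 0.083, adjusted p = 0.00179), and it kept its call in every alternative run. BIRC5 changed by -0.49, UBE2C by -0.43, MAD2L1 by -0.42, CCNB1 by -0.40, CENPA by -0.38, NUF2 by -0.36, TPX2 by -0.36 and CCNA2 by -0.30. The count rests on few libraries: it was 1 without D3 replicate 2, and 5 without D3 replicate 3 or without Untreated replicate 3. Fitted without D14 and D28WO it was 5, a fit chosen after the data were seen, and with median-ratio size factors it was 18.

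At D28 in U87, 15 members fell and 1 rose, where 6.55% of all genes were called lower and 17.2% higher. Their median was -0.21, and that of all genes 0.19. PTTG1 was again the member with the largest fall, at 163, 158 and 175 TPM (log2 fold change -0.48 ± 0.074, adjusted p = 1.0e-03). UBE2C, at 195, 177 and 159 TPM, changed by -0.48, NUF2 by -0.43, BIRC5 by -0.42, PRC1 by -0.41, CCNB1 by -0.41, MAD2L1 by -0.40 and NDC80 by -0.40. Also called lower were BUB3 (-0.33), TPX2 (-0.32), PLK1 (-0.30), CDCA8 (-0.29), CCNB2 (-0.27), KIF2C (-0.24) and DLGAP5 (-0.21). Without Untreated replicate 3 the count of calls was 9, in the fit without D14 and D28WO also 9, and among the alternatives run it ranged from 6 to 22. CDC20 was at 98.1, 134 and 149 TPM and did not pass (adjusted p = 0.0665 with limma). The calls of PLK1 and BUB3 at D28 were lost in many alternatives, and that of CCNB1 with quantile normalization.

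ASPM (chromosome 1, 197084121 to 197146694), a spindle pole protein, was the only member called higher than Untreated in U87. It was at 36.8, 41.4 and 38.4 TPM in the Untreated libraries, 41.5 and 41.2 at D3, 59.8 and 60.2 at D14, 52.5, 57.4 and 45.5 at D28 and 31.3, 29.4 and 33.4 at D28WO. The D14 and D28 libraries lay above every Untreated library, and the D28WO libraries below. The log2 fold changes were 0.62 ± 0.11 (SE, adjusted p = 0.0125) at D14, 0.40 ± 0.10 (SE, adjusted p = 0.012) at D28 and -0.30 ± 0.10 (SE, adjusted p = 0.026) at D28WO. At D14 it was the only member called, 1 higher and 0 lower (3 and 3 at an unadjusted p under 0.05, limma), where 1.02% of all genes were called lower and 4.14% higher. The call at D14 was lost without either of its 2 libraries, that at D28 without D28 replicate 2 or with quantile or median-ratio scaling, and that at D28WO without Untreated replicate 2 or 3 or D28WO replicate 1 or 2.

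The steps between the later U87 groups showed few calls until D28WO. From D3 to D14, 4 members rose and 0 fell (17 and 0 at an unadjusted p under 0.05, limma), where 3.32% of all genes were called lower and 1.47% higher. They were ASPM (0.53), CENPA (0.52), MAD2L1 (0.41) and KIF23 (0.39), and 0 were called without D3 replicate 2, without D14 replicate 2 or without D14 replicate 3. From D14 to D28, 2 fell and 0 rose (18 and 0 at an unadjusted p under 0.05, limma), against 1.12% and 2.94% of all genes: NDC80, from 95.7 and 96.7 to 68.9, 71.3 and 73.4 TPM (log2 fold change -0.43 ± 0.094, adjusted p = 0.0247), and MAD2L1 (-0.40). Neither was called without D14 replicate 2, without D14 replicate 3 or without D28 replicate 1.

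Between D28WO and D28, groups of the same day, 20 members were lower in D28WO and 0 higher (25 and 1 at an unadjusted p under 0.05, limma), where 8.44% of all genes were called lower and 9.9% higher. The median of the members was -0.25, and that of all genes 0.039. ANLN differed most, at 184, 165 and 104 TPM at D28 and 72.7, 81.7 and 110.4 TPM at D28WO (log2 fold change -0.75 ± 0.20, adjusted p = 0.0249). Its call was lost without D28 replicate 1 or 2 and without D28WO replicate 1 or 2. KIF20A (80.3, 103 and 81.5 against 52.2, 47.7 and 61.02 TPM, log2 fold change -0.70), ASPM (-0.70), CDC20 (-0.68), INCENP (-0.57), KIF11 (-0.55), FOXM1 (-0.53) and SPC25 (-0.51) followed. CCNB1, at 203, 241 and 261 TPM at D28 and 229, 239 and 235 TPM at D28WO, did not pass this test. The count was 10 without D28WO replicate 1, 11 without D28 replicate 2 (10 lower, 1 higher) and 12 without D28WO replicate 2.

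**Figure D3:**
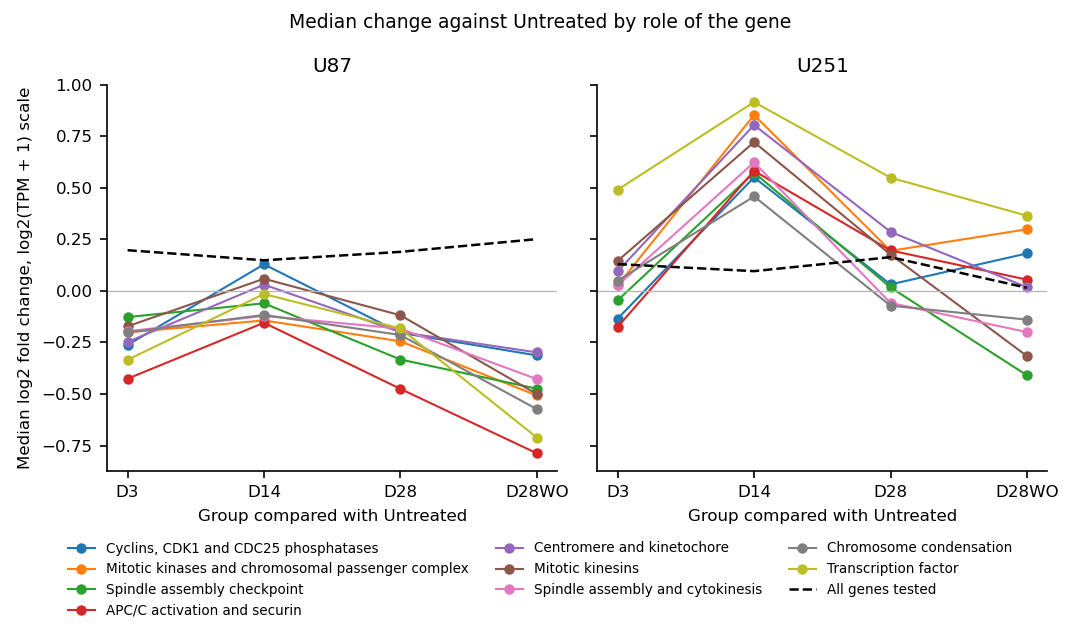
Median log2 fold change against Untreated (log2(TPM + 1) scale) of each role group at D3, D14, D28 and D28WO in U87 (left) and U251 (right), with the median of all genes tested as a dashed line. In U87 the APC/C group (CDC20, UBE2C and PTTG1, none of them a subunit of the complex) was lowest at each point, reaching -0.79 at D28WO. In U251 the roles came together above zero at D14 and spread on both sides of zero at D28WO.

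In U251 the members stood near Untreated at D3, rose together at D14, returned most of the way by D28 and split at D28WO. Their sum was 3344, 3451 and 3860 TPM in the Untreated libraries, 3877, 3274 and 3676 at D3, 4948, 5434 and 5554 at D14, 3947, 3657 and 3911 at D28, and 3205, 3463 and 3427 at D28WO. Only the D14 libraries lay wholly above the Untreated range. By group mean, 45 of 46 members were highest at D14, and KIF18A was highest at D28.

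At D14 in U251, 42 of 46 members rose and 0 fell (46 and 0 at an unadjusted p under 0.05, limma), where 7.31% of all genes were called lower and 13.8% higher. Their median was 0.64 and that of all genes 0.096, and 44 members had every D14 library above every Untreated library, against 23.7% of all genes. The 2 members past 2-fold were NDC80 (1.06) and KIF18A (1.08), against 4.72% of all genes. The 4 without a call were SPC25 (0.28), NUSAP1 (0.28), ANLN (0.37) and SMC4 (0.28), all positive. Leaving out any 1 library left 38 to 43 called.

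Every role took part in the rise. Among the kinases PLK1 was at 49.5, 57.4 and 47.8 TPM in Untreated and 90.01, 88.1 and 111 TPM at D14 (log2 fold change 0.89 ± 0.11, adjusted p = 1.1e-04), and AURKB at 86.1, 85.2 and 109.8 TPM in Untreated and 153, 155 and 191 TPM at D14 (0.82). AURKA rose by 0.90, CDCA8 by 0.90, BIRC5 by 0.64 and INCENP by 0.48. For the cyclins, CCNB1 went from 147, 173 and 181 to 231, 255 and 263 TPM (0.58) and CDK1 from 104, 103 and 120.4 to 141, 152 and 155 TPM (0.45). CDC25C rose by 0.78, CCNA2 by 0.65, CCNB2 by 0.52 and CDC25B by 0.46.

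At the kinetochore 5 of 6 members rose at D14 in U251. NDC80 (chromosome 18, 2571557 to 2616635), the microtubule-binding subunit, was at 43.2, 41.97 and 53.3 TPM in Untreated and 94.9, 87.6 and 108 TPM at D14 (log2 fold change 1.06 ± 0.16, adjusted p = 3.6e-04). CENPA rose by 0.93, CENPE by 0.90, NUF2 by 0.71 and CENPF by 0.55, the last from 82.9, 94.3 and 106 to 126, 151 and 139 TPM. All 5 checkpoint genes rose, with TTK (0.78) ahead of BUB1 (86.02, 85.2 and 106 to 122, 146 and 154 TPM, log2 fold change 0.60), BUB1B (0.57), MAD2L1 (0.36) and BUB3. BUB3 moved least, from 109.7, 113 and 120.4 to 126, 139.6 and 145 TPM (0.26), and its call was lost without Untreated replicate 1 or 2, without D14 replicate 2 or 3 and with median-ratio size factors.

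The rise at D14 in U251 also held CDC20, from 81.6, 79.8 and 88.9 to 122, 152 and 149 TPM (log2 fold change 0.75 ± 0.11, adjusted p = 3.5e-04), UBE2C (0.58) and PTTG1 (0.42). All 7 kinesins rose, from 0.57 for KIF11 to 1.08 for KIF18A. TOP2A went from 99.5, 103 and 119.9 to 130.3, 168 and 154 TPM (0.48) and FOXM1 from 59.5, 59.7 and 62.1 to 105, 122 and 118 TPM (0.92). HMMR rose by 0.79, ASPM by 0.71, DLGAP5 by 0.68, TPX2 by 0.64, ECT2 by 0.61 and PRC1 by 0.41.

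At D3 in U251 the members split, 6 lower and 8 higher, where 16% of all genes were called lower and 24.9% higher, so neither share was above that of all genes. The median was 0.025 and turned to -0.036 with median-ratio size factors, and the split was 8 lower and 7 higher with quantile normalization and 7 and 4 with median-ratio size factors. KIF20A stood out, at 64.1, 65.3 and 76.1 TPM in Untreated and 26.9, 22.2 and 21.9 TPM at D3 (log2 fold change -1.496 ± 0.090, adjusted p = 2.0e-08). It was the 1 member called lower by more than 2-fold, against 4.55% of all genes. The other falls were INCENP (46.3, 52.7 and 50.7 to 32.5, 31.3 and 38.7 TPM, log2 fold change -0.54), SPC25 (60.6, 56.7 and 75.9 to 52.2, 45.2 and 44.04 TPM, log2 fold change -0.44), CCNB1 (-0.36), CDK1 (-0.32) and MAD2L1 (-0.22). CDK1 was at 93.3, 74.8 and 93.7 TPM and CCNB1 at 145, 102 and 145 TPM, and the calls of these 2 and of MAD2L1 were lost without D3 replicate 2 or without Untreated replicate 3. Higher were KIF18A (0.95), NDC80 (0.67), KIF2C (0.54), FOXM1 (0.49), HMMR (0.40), TTK (0.30), CDCA8 (0.28) and TPX2 (0.26), of which TTK lost its call in most alternatives. Lower members numbered 3 without Untreated replicate 3 or D3 replicate 2, and higher members 4 without Untreated replicate 1 or D3 replicate 1 and 5 without Untreated replicate 2, and the fit without D14 and D28WO gave 5 lower and 7 higher.

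**Figure D4:**
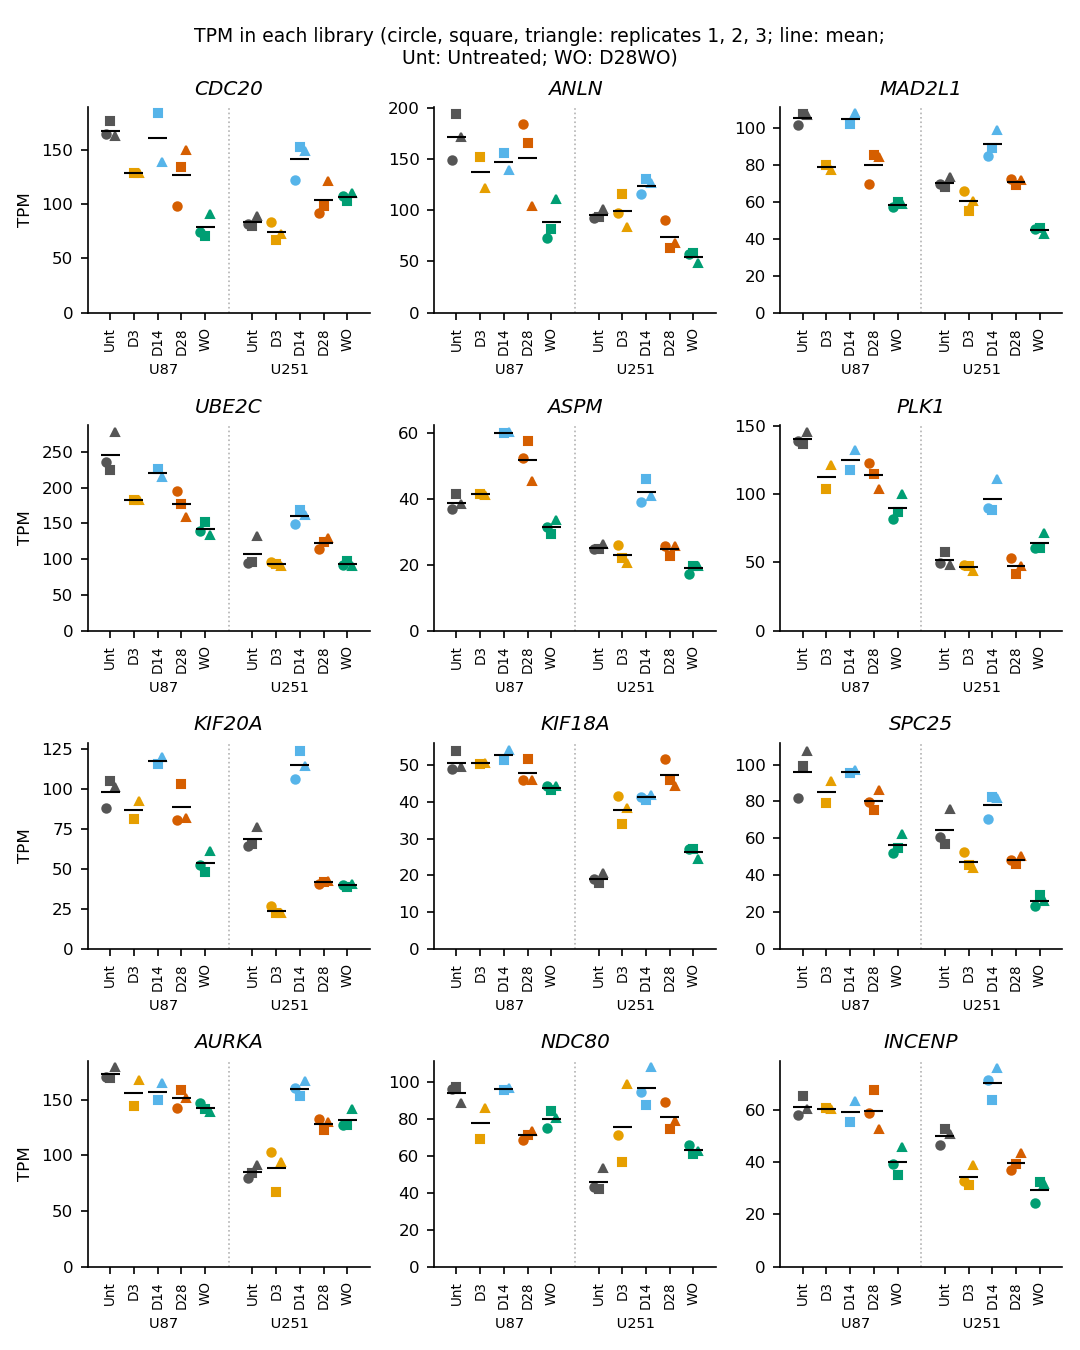
TPM of 12 members in each library, with U87 on the left and U251 on the right of each panel, groups in the order Untreated, D3, D14, D28 and D28WO, and the group mean as a line. KIF20A of U251 drops to 21.9 to 26.9 TPM at D3 and reaches 106 to 123 TPM at D14, and CDC20 of U87 is lowest at D28WO.

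At D28 in U251, 4 members were lower and 15 higher than in Untreated, where 14.7% of all genes were called lower and 25.9% higher. The share of members called higher was thus near that of all genes, and the share called lower was below it. The median was 0.12, against 0.16 for all genes. It was 0.061 to 0.19 with 1 library left out and 0.058 with median-ratio size factors. The split was 6 lower and 13 higher with quantile normalization and 5 and 12 with median-ratio size factors. KIF18A (chromosome 11, 28020619 to 28108156) rose most, from 18.9, 17.8 and 20.5 TPM in Untreated to 41.5, 33.9 and 38.3 at D3, 41.4, 40.6 and 41.8 at D14 and 51.8, 46.1 and 44.4 at D28 (log2 fold change 1.27 ± 0.092, adjusted p = 1.2e-07), before 27.2, 27.2 and 24.5 TPM at D28WO. It was the 1 member past 2-fold at D28, against 11.9% of all genes. Its D3, D14 and D28 libraries lay above all Untreated and D28WO libraries. NDC80 (0.80), CENPA (0.65), AURKA (0.59), FOXM1 (0.55), HMMR (0.54) and CDC25C (0.53) were among the other rises. The 4 lower were KIF20A, at 40.4, 41.6 and 42.4 TPM (log2 fold change -0.71 ± 0.090, adjusted p = 2.9e-05), SPC25, at 48.1, 45.7 and 50.2 TPM (-0.41), ANLN, at 89.9, 62.9 and 68.3 TPM (-0.39), and INCENP (-0.32). CDC20 (0.30) and CENPF (0.32) were called higher too, and both calls were lost in many alternatives. The call of SPC25 was lost without Untreated replicate 3, that of ANLN without any 1 Untreated library or without D28 replicate 2 or 3, and that of INCENP without Untreated replicate 2 or 3, D14 replicate 1 or D28 replicate 1 or 2. Lower members numbered 2 without Untreated replicate 2 or D28 replicate 2 and 1 without Untreated replicate 3. The fit without D14 and D28WO gave 3 lower and 12 higher.

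At D28WO in U251, 15 members were lower and 10 higher than in Untreated, where 13.4% of all genes were called lower and 14.3% higher. Leaving out 1 library left 13 to 16 lower and 5 to 10 higher, the latter 5 without Untreated replicate 1 or D28WO replicate 3 and 6 without Untreated replicate 2 or D28WO replicate 1 or 2. The median was -0.11 (-0.13 to -0.041 with 1 library left out), against 0.015 for all genes. The split was 15 lower and 7 higher with quantile normalization and 15 and 6 with median-ratio size factors. SPC25 (chromosome 2, 168834132 to 168913371) fell most, from 60.6, 56.7 and 75.9 TPM in Untreated to 23.1, 28.9 and 26.1 TPM at D28WO (log2 fold change -1.27 ± 0.11, adjusted p = 1.8e-06), the 1 member past 2-fold, against 3.38% of all genes. ANLN went from 92.3, 93.5 and 101 to 56.8, 57.6 and 48.04 TPM (log2 fold change -0.81 ± 0.13, adjusted p = 3.9e-04), KIF20A to 39.6, 38.7 and 40.6 TPM (log2 fold change -0.77 ± 0.090, adjusted p = 2.1e-05) and INCENP from 46.3, 52.7 and 50.7 to 24.4, 32.3 and 31.6 TPM (log2 fold change -0.75 ± 0.12, adjusted p = 2.7e-04). In none of these 4 did the groups overlap. MAD2L1 (69.9, 68.3 and 73.6 to 45.6, 45.9 and 42.6 TPM, log2 fold change -0.65), CCNA2 (-0.62), CDK1 (67.7, 85.96 and 68.8 TPM, log2 fold change -0.55), BUB1B (-0.54), TOP2A (73.2, 76.5 and 78.7 TPM, log2 fold change -0.49), KIF11 (-0.42), TTK (-0.41), ASPM (-0.40), KIF20B (-0.36), DLGAP5 (-0.35) and KIF23 (-0.32) were lower as well, with the call of TTK lost without Untreated replicate 2 or D28WO replicate 1.

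Of the 10 members higher at D28WO in U251, AURKA had the largest change. It was at 79.4, 84.3 and 91.7 TPM in Untreated and 127, 127 and 141 TPM at D28WO (log2 fold change 0.63 ± 0.12, adjusted p = 0.00129), and CENPA at 37.4, 30.9 and 40.6 TPM in Untreated and 45.1, 60.1 and 59.7 TPM at D28WO (log2 fold change 0.58 ± 0.14, adjusted p = 0.00745). NDC80 was at 43.2, 41.97 and 53.3 TPM in Untreated and 65.7, 61.02 and 62.96 TPM at D28WO (0.45), a call that was lost without Untreated replicate 1 or 2 or any 1 D28WO library and under both other scalings. KIF18A (0.44), CDCA8 (0.40), HMMR (0.37), FOXM1 (80.4, 80.4 and 73.7 TPM, log2 fold change 0.36), CDC20 (108, 103 and 110.3 TPM, log2 fold change 0.35), BIRC5 (0.28) and TPX2 (0.28) were also higher. The calls of BIRC5 and HMMR (adjusted p = 0.047 each, limma) were lost without Untreated replicate 1 or 2 or any 1 D28WO library and under both other scalings, and that of TPX2 without Untreated replicate 1 or 2 or D28WO replicate 2 or 3. The call of CDC20 was lost without Untreated replicate 1 or 2, without D28WO replicate 1 or 3 and with median-ratio size factors. AURKA and its activator TPX2 were higher, and INCENP, the scaffold of AURKB, was lower. AURKB itself was at 53.97, 89.5 and 64.2 TPM (-0.45, adjusted p = 0.0878 with limma), and PLK1 at 60.6, 60.8 and 71.7 TPM (0.31, adjusted p = 0.0579 with limma), so neither passed. CCNB1 (187, 187 and 206 TPM), BUB1 (77.6, 77.9 and 77.7), BUB3 (101, 109.5 and 106) and CENPF (76.9, 86.2 and 91.01) did not pass either.

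The rise and the return of the U251 members can be read between neighbouring groups. From D3 to D14, 38 members rose and 0 fell (42 and 0 at an unadjusted p under 0.05, limma), where 12.8% of all genes were called higher and 12.6% lower. KIF20A rose from 26.9, 22.2 and 21.9 to 106, 123 and 114 TPM (log2 fold change 2.23 ± 0.090, adjusted p = 2.3e-09), and PLK1 (1.03) and INCENP (1.02) also passed 2-fold, 3 members against 3.19% of all genes. From D14 to D28, 31 fell and 0 rose (39 and 0 at an unadjusted p under 0.05, limma), where 9.48% of all genes were called lower and 11.3% higher. KIF20A fell by 1.44 (adjusted p = 1.2e-07, limma) and PLK1, to 53.5, 41.1 and 47.1 TPM, by 1.01, the 2 members past 2-fold, against 1.6% of all genes. KIF18A was the only member whose mean rose in that step (0.19, adjusted p = 0.169 with limma).

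Between D28WO and D28 in U251, 20 members were lower in D28WO and 1 higher, where 18.8% of all genes were called lower and 10.3% higher. The medians were -0.25 and -0.12. TTK, the checkpoint kinase, differed most, at 61.01, 55.7 and 60.5 TPM at D28 and 25.95, 34.2 and 33.5 TPM at D28WO (log2 fold change -0.91 ± 0.11, adjusted p = 5.2e-05). SPC25 (-0.86), KIF20B (-0.84), KIF18A (-0.82) and AURKB (-0.82) followed. PLK1 was the 1 member higher in D28WO, at 53.5, 41.1 and 47.1 TPM at D28 and 60.6, 60.8 and 71.7 TPM at D28WO (log2 fold change 0.44 ± 0.11, adjusted p = 0.0106), and its call was lost without D28 replicate 2 or without D28WO replicate 3.

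**Figure D5:**
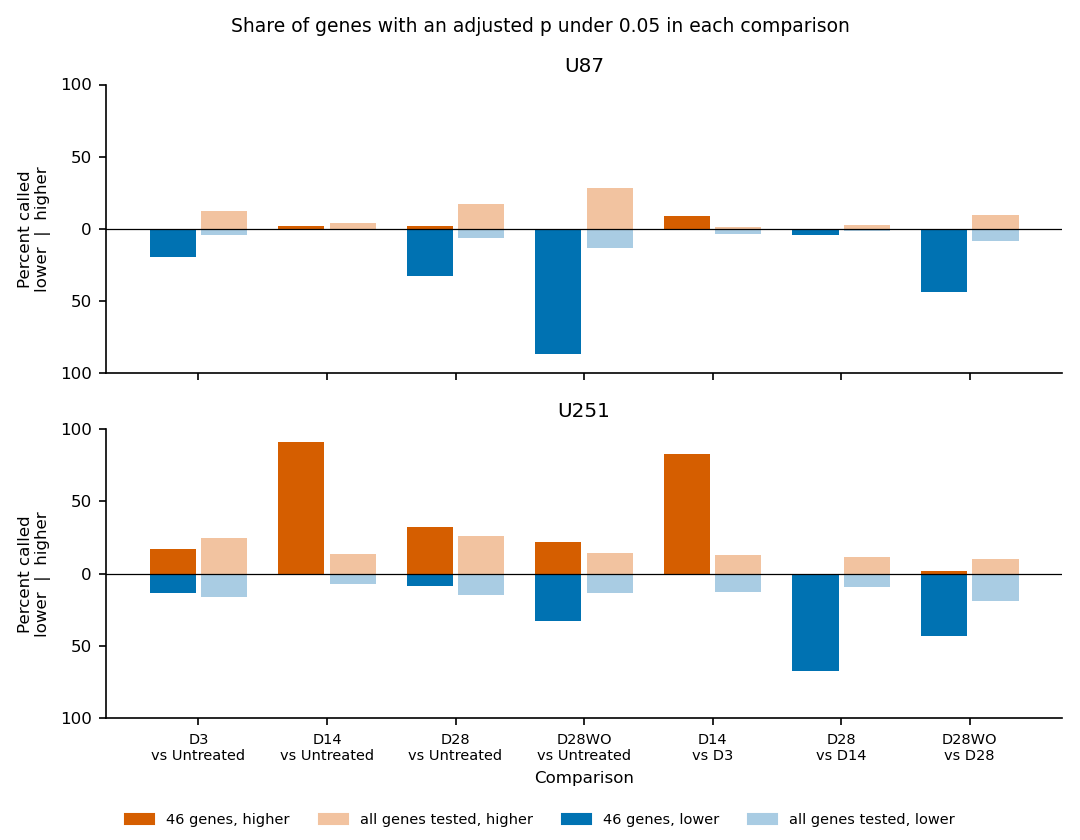
Percent of the 46 mitotic genes (dark bars) and of all genes tested (light bars) called higher (upwards) or lower (downwards) at an adjusted p under 0.05 in 7 comparisons of U87 (top) and U251 (bottom). The dark bars pass the light ones furthest for D28WO against Untreated in U87, with 40 of 46 lower, and for D14 against Untreated and against D3 in U251, with 42 and 38 of 46 higher.

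Set side by side, the lines shared a direction for part of the members only. No test was made between the lines, which were deposited in 2 tables, and how TPM was computed in each is not given in the sources used here. At D28WO against Untreated, the 15 members lower in U251 were all lower in U87 too, 37.5% of the 40 called there, while 9 (22.5% of the 40) were lower in U87 and higher in U251. Since 40 of the 46 were lower in U87, most of that overlap is fixed by the count. Over all genes tested in both lines, 41.8% of those lower in U251 were lower in U87 and 41.8% of those lower in U87 were lower in U251, and 6.25% of those lower in U87 were higher in U251. ANLN, KIF20A, SPC25, MAD2L1 and INCENP were among the 15 members. At D28, 0 members were lower in both, against 37.5% of all genes lower in U87 and 16.7% of those lower in U251. With 15 of the 46 members lower in U87 and 4 in U251, few calls could be shared. Of the 15 lower in U87, 4 (26.7%) were higher in U251, against 17.7% over all genes. At D3, 2 were lower in both, CCNB1 and MAD2L1, which is 22.2% of the members lower in U87 and 33.3% of those lower in U251, against 49% and 13.3% of all genes. From D28 to D28WO, 14 of the 20 members lower in U87 were also among the 20 lower in U251 (70% of each). Over all genes the shares were 36.4% and 16.3%. There 20 of the 46 members were lower in each line, against 8.44% of all genes in U87 and 18.8% in U251. Part of that overlap is thus fixed by the counts. Within that limit on the unit, in Untreated cells 44 of 46 members had a higher TPM in U87 than in U251, and the order of levels was similar (Pearson r = 0.875 of log2 TPM, Spearman rho = 0.861, over 46 genes that are not independent replicates).

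The levels of the members, given here as mean TPM, spanned 10.1-fold in Untreated U87. In Untreated U87 they ran from 30.9 TPM for CDC25C and 38.8 for ASPM to 265 for SMC4 and 313 for CCNB1, with a median of 111 TPM. In Untreated U251 they ran from 17.2 TPM for CENPE and 19.1 for KIF18A to 189 for PRC1 and 213 for SMC4, with a median of 68.3 TPM. The spread between replicates was modest, with a median coefficient of variation of the members of 3.68% to 10.2% in the U87 groups and 6.18% to 11.6% in those of U251. In GENCODE 44, exons of 16 members overlap exons of a gene on the opposite strand, KIF20A, ANLN, PLK1 and FOXM1 among them, and the use of strand in counting is not given in the sources used here, so reads of such pairs cannot be told apart. For BUB1B, CENPA, NUSAP1 and PRC1 (4 members) the overlapping gene lies on the same strand, where strand would not separate the reads either.

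Other genes of the same machinery were read from hand-written lists, against the shares of all genes given above. Of 32 further kinetochore and centromere genes, 21 were lower and 2 higher at D28WO in U87 (median -0.50), and 24 were higher and 0 lower (26 and 0 at an unadjusted p under 0.05, limma) at D14 in U251 (median 0.55). At D28WO in U251 14 of the 32 were lower and 1 higher, with CENPI, a subunit of the inner kinetochore, at 35.3, 29.9 and 30.1 TPM in Untreated and 10.1, 15.8 and 9.602 TPM at D28WO (log2 fold change -1.38 ± 0.22, adjusted p = 3.8e-04). Of 28 further spindle and cytokinesis genes, 20 were lower and 0 higher (20 and 0 at an unadjusted p under 0.05, limma) at D28WO in U87 (median -0.45), and 23 were higher and 0 lower (27 and 0 unadjusted) at D14 in U251 (median 0.65). GTSE1, a microtubule-binding protein of G2, was at 26.3, 24.9 and 23.1 TPM in Untreated U251 and 59.1, 56.2 and 64.1 TPM at D14 (log2 fold change 1.24 ± 0.11, adjusted p = 4.2e-06). Of 17 condensin and cohesin genes, 9 were lower and 2 higher at D28WO in U87, and 8 higher and 0 lower (12 and 0 at an unadjusted p under 0.05, limma) at D14 in U251. At D28WO in U251 the spindle and cytokinesis genes were split, 5 lower and 4 higher (median 0.026), as were the condensin and cohesin genes, 5 and 2 (median -0.058).

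The APC/C list of 17 genes holds 14 subunits, the activator FZR1 (CDH1), the ubiquitin-conjugating enzyme UBE2S and the inhibitor FBXO5 (EMI1). At D28WO in U87 5 of the 17 were lower and 4 higher (median 0.0065), or 3 lower and 4 higher of the 14 subunits, with UBE2S (-0.33) and FBXO5 (-0.89) the other 2 lower. At D14 in U251 3 were higher and 0 lower (4 and 1 at an unadjusted p under 0.05, limma, and median 0.13), of which UBE2S (0.41) and FBXO5 (0.42) were 2 and a subunit was 1. At D28WO in U251 2 of the 17 were lower and 3 higher. Of 18 regulators of mitotic entry and of mitotic transcription, 9 were lower and 2 higher at D28WO in U87 and 5 lower and 3 higher at D28WO in U251. MYBL2 (B-MYB), which joins the MuvB complex at these promoters, was at 82.96, 75.9 and 75.1 TPM in Untreated U87 and 19.1, 25.03 and 39.3 TPM at D28WO (log2 fold change -1.51 ± 0.19, adjusted p = 8.0e-05). PKMYT1, a kinase that holds CDK1 inactive, was at 82.7, 93.6 and 61.3 TPM in Untreated and 19.01, 33.5 and 30.2 TPM at D28WO (log2 fold change -1.51 ± 0.21, adjusted p = 1.6e-04), and E2F5, an E2F of the repressor class, rose from 17.8, 18.6 and 15.3 to 55.9, 52.2 and 46.8 TPM (log2 fold change 1.53 ± 0.14, adjusted p = 8.4e-06). In U251, 9 of the 18 were higher and 0 lower (10 and 1 at an unadjusted p under 0.05, limma) at D14. At D3 in U251 the 46 members were split, and 24.9% of all genes were called higher and 16% lower. There 10 of these 18 regulators were higher and 3 lower, as were 14 and 1 of the 32 kinetochore and centromere genes. Of the 17 condensin and cohesin genes 9 were higher and 1 lower. Of the 28 spindle and cytokinesis genes 7 were higher and 3 lower, and of the 17 APC/C genes 4 and 3. In both of these last lists the share called higher was near that of all genes. Among the regulators LIN54, the DNA-binding subunit of MuvB, rose from 20.9, 19.2 and 22.7 to 66.6, 57.2 and 44.5 TPM (log2 fold change 1.36 ± 0.15, adjusted p = 5.7e-06).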

How the data were processed

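The authors aligned reads from TruSeq libraries to GRCh38 with STAR, counted genes with featureCounts, and deposited 1 TPM table per line. How TPM was computed is not given in the sources used here, and values sum to 1000000 in each library, so the depth of a library cannot be read from the tables, and the methods name only a minimum per sample. Another source of the study calls the values CPM. A value of 0 means only that a gene is listed at 0. The authors tested filtered counts with edgeR and limma-voom, and those counts are not used here. Labels placed samples in groups. 2 columns of U87 have 1 name between them and were left out, as their sample is ambiguous, which leaves D3 and D14 with replicates 2 and 3.

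The test was limma 3.58.1 (R 4.3.3) on log2(TPM + 1), for genes whose mean in the line reached 0.5 TPM, all 5 groups in 1 fit, eBayes with a trend, and Benjamini-Hochberg adjustment over all genes tested. Called means an adjusted p under 0.05. Fold changes on this scale understate changes of low genes. The code was tested on simulated data. The methods call replicates separate cultures, so p-values measure the spread between cultures of 1 line. The members and lists were chosen with earlier results of these data known. Values per library were given by a fixed rule: in each line the 5 members with the largest called change at D28WO against Untreated and the 1 with the largest called change in each other comparison, 12 members that stand for the roles, up to 3 members per comparison called against the sign of the members' median, and at most 3 genes per line from the other lists. Values of other members were added after they were seen. Alternatives were another pseudocount (0.1), no filter, quantile normalization, median-ratio size factors, a replicate block, 2-group fits and leaving out each library. A fit of Untreated, D3 and D28 only was chosen after seeing the data. Replicate numbers were not taken to pair the samples (correlations of same-numbered libraries -0.058 to 0.048). Positions are from GENCODE 44 and promoters from RefSeq, both on GRCh38.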

Additional observations from a re-analysis of the deposited data

Results flagged for a closer look

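At D28 or D28WO several members were called lower than Untreated in U87 and higher in U251, with every library of each treated group on its side of every Untreated library of that line. The difference between the lines was not tested, and how TPM was computed in the 2 tables is not given in the sources used here. In the libraries labelled D28WO of both lines IRF1, GBP1 and PSMB9 did not follow the labelled exposure, as described above. Called lower in U87 and higher in U251 were 4 members at D28, 26.7% of those lower in U87, and 9 at D28WO, 22.5%. The 9 include CENPA, whose D28WO and Untreated libraries of U87 overlapped. Over all genes 17.7% and 6.25% of those lower in U87 were higher in U251. At D28 the log2 fold changes were 0.46 in U251 and -0.29 in U87 for CDCA8, 0.80 and -0.40 for NDC80, 0.44 and -0.24 for the depolymerase KIF2C, and 0.30 and -0.32 for TPX2.

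At D28WO the transcription factor FOXM1 was at 0.36 in U251 and -0.71 in U87, and CDC20 at 0.35 and -1.09. AURKA was at 0.63 in U251 and -0.28 in U87, and its activator TPX2 at 0.28 and -0.52. The passenger complex subunits BIRC5 and CDCA8 were at 0.28 and 0.40 in U251 and at -0.57 and -0.42 in U87. NDC80 was at 0.45 and -0.23, and HMMR at 0.37 and -0.40. Between D28WO and D28, with every D28WO library on its side of every D28 library, PLK1 was at 0.44 in U251 and -0.34 in U87. Calls of NDC80, CDC20, BIRC5, HMMR and TPX2 at D28WO in U251, of NDC80 at D28WO in U87, of CDCA8 and KIF2C at D28 in U87 and of PLK1 in both lines were lost without single libraries. No such loss occurred for AURKA, FOXM1 and CDCA8 at D28WO.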

How the results depend on the processing

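None of the 282 calls of members reversed direction in any alternative, while values near zero that were not called could change sign. Of these 282 calls among the 644 values of members, 195 were made in every alternative and 87 were lost in at least 1. The count of members called at D3 in U87 was 9, and became 18 with median-ratio size factors, 3 in a fit of only the 2 groups compared and 5 in the fit of Untreated, D3 and D28, which was chosen after seeing the data. At D28 in U87 the 16 calls became 10 without the filter, 6 with only the 2 groups and 9 in that added fit. With only the 2 groups the counts became 0 at D14, 0 from D3 to D14, 0 from D14 to D28 and 11 for D28WO against D28 in U87, and 8 at D3 in U251. From D14 to D28 in U87 the 2 calls became 4 after quantile normalization and 1 under median-ratio scaling.

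The methods state that cultures were divided at D14 between continued IFN-γ and its removal, so D28 and D28WO libraries may share a culture, but the labels do not say that a replicate number marks one. Same-numbered libraries did not deviate together (correlations of -0.027 to 0.039 between D28 and D28WO), and the numbers were not taken as pairs. With the replicate number as a block the count was 2 from D3 to D14 and 0 from D14 to D28 in U87, and 38 at D28WO in U87 and 42 at D14 in U251. For D28WO against D28 it was 19 in U87 and 20 in U251.

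Leaving out 1 library gave 1 to 10 calls at D3 in U87, 0 to 1 at D14, 9 to 15 at D28, 33 to 41 at D28WO, 0 to 6 from D3 to D14, 0 to 5 from D14 to D28 and 10 to 22 for D28WO against D28. From D3 to D14 the count was 2 without D3 replicate 3, D28WO replicate 1 or D28WO replicate 2, and from D14 to D28 it was 5 without D28 replicate 2. In U251 the ranges were 9 to 15 at D3, 38 to 43 at D14, 14 to 20 at D28, 19 to 25 at D28WO, 35 to 39 from D3 to D14, 26 to 34 from D14 to D28 and 15 to 23 for D28WO against D28. A group left with 1 library was assumed to vary like the others. The cause of these changes was not tested.

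In the U87 comparisons with Untreated the median of all genes stood above zero by 0.15 to 0.25, so a fall of a member is larger against it. The member medians against Untreated, in time order, were -0.21, -0.047, -0.21 and -0.45 in the main fit. With median-ratio size factors they were -0.35, -0.18, -0.34 and -0.61. Quantile normalization brought the medians of all genes to between -0.026 and -0.0063. It left the member medians near those of the main fit, at -0.21, -0.054, -0.24 and -0.48. TPM keeps no depth, so the counting error of a value cannot be computed from the tables, and U87 at D3 and D14 rests on 2 libraries.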
